A study of Macaca mulatta with 36 samples.

Results

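ISG15 and HERC6 are genes switched on by interferon, and each was read by 1 probe set on the rhesus array. They were found by symbol: of 14132 genes with at least 1 probe set that carries a single symbol, these are 2, and of 52707 probe sets tested, 2 belong to them. ISG15 was read by probe set MmugDNA.17118.1.S1_at and HERC6 by MmugDNA.30921.1.S1_at, so neither gene has a second probe set of that symbol to check it against.

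ISG15 encodes a small protein built like ubiquitin. Cells attach it to other proteins through a relay of an activating enzyme (UBA7), a conjugating enzyme (UBE2L6) and a ligase, and remove it again with the protease USP18. Cells also release it, and outside the cell it can bind the integrin LFA-1 on lymphocytes. The ligase that attaches most ISG15 in human cells is HERC5. HERC6 is its closest relative, built on the same plan of a repeat domain and a HECT ligase domain, and it takes over this role in mice, which lack HERC5. Interferon raises the transcription of both genes through response elements in their promoters.

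RNA was taken from the hippocampus of 18 male rhesus macaques. Of these, 9 had SIVE, an encephalitis seen in macaques that carry simian immunodeficiency virus, and 9 were uninfected controls. An antibody against CD8, used in macaques to deplete CD8 T cells, had been given to 4 SIVE animals, all 6 years old, and to 2 controls aged 3 and 4 years. The 5 SIVE animals without it were 2 to 5 years old and the 7 controls without it 3 to 8 years old. Each animal has 2 arrays, labelled technical replicates, although the series design speaks of duplicate samples, so whether they come from 1 piece of tissue or 2 is unclear. No animal was infected without encephalitis, and the virus strain and the time since infection are not given in the sources used here. An animal is named below by its group and replicate number.

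Values are RMA signals on a log2 scale, where a difference of 1 is 2-fold, and the number of arrays limits their precision. Of 6 hippocampal marker genes 4 were measured. PROX1 of dentate granule cells (8.62 in controls, 8.44 in SIVE), NEUROD6 of pyramidal neurons (9.27 and 9.27) and ZBTB20 (10.40 and 10.55) lay above the median probe set level of 5.65, whereas TDO2 (3.08 and 3.10) lay below it. The 3′ minus 5′ signal of 3 control transcripts, which grows when RNA is shortened, was 0.955 to 1.45 in SIVE 2, SIVE 3 and Control 8, and 0.104 to 0.466 in the other 15 animals. All 3 of these animals carry the anti-CD8 label.

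ISG15 was higher in every SIVE animal than in every control. In SIVE it ran from 11.12 in SIVE 8 through a median of 12.31 to 12.60 in SIVE 6. In the 9 controls it ran from 6.08 in Control 7 through a median of 6.78 to 7.41 in Control 8. The lowest SIVE animal lay 3.72 above the highest control. The means were 12.18 ± 0.49 (SD, n = 9) and 6.80 ± 0.37 (SD, n = 9), so ISG15 rose by 5.37 ± 0.19 (SE), or 41.5-fold with a 95% interval of 31.5 to 54.6 (limma adjusted p = 4.5e-13).

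HERC6 in SIVE ran from 8.68 in SIVE 8 through a median of 9.96 to 10.15 in SIVE 3. In controls it ran from 5.75 in Control 5 through a median of 6.12 to 6.41 in Control 3. These groups did not overlap either, and the gap between the lowest SIVE animal and the highest control was 2.27. HERC6 rose by 3.68 ± 0.16 (SE), from 6.10 ± 0.21 (SD, n = 9) to 9.79 ± 0.47 (SD, n = 9), which is 12.8-fold with a 95% interval of 10.2 to 16.2 (limma adjusted p = 8.18e-12).

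Both members were thus called higher, against 3.63% of all probe sets called higher, 1.3% called lower and 4.92% called in either direction. Every SIVE animal lay above every control in 1.2% of all probe sets. Ordered by the difference between SIVE and control, ISG15 stood at place 2 and HERC6 at place 29 of 52707. Both members were chosen with earlier results of these data known, so these shares and places describe them and are no independent test. In whole tissue, more RNA per cell and more of the cells that make it cannot be told apart.

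**Figure D1:**
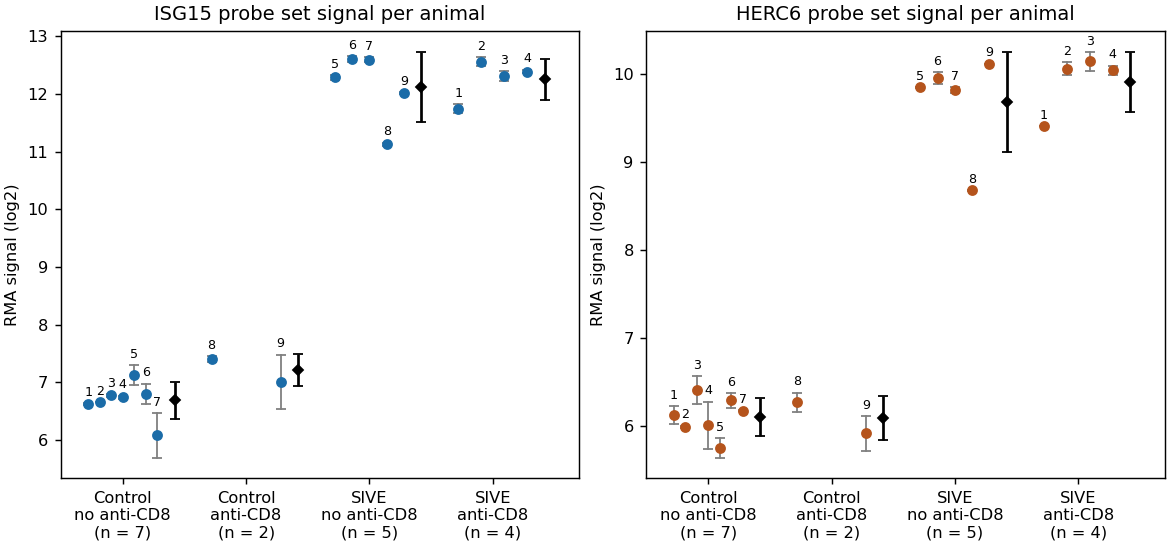
RMA signal (log2) of ISG15 on the left and HERC6 on the right, by group and anti-CD8 label. Coloured points are the mean of an animal's 2 arrays, grey ticks joined by a line are the 2 arrays, numbers are the labels' replicate numbers, and black diamonds with bars are the mean and SD over animals. For both genes SIVE 8 is the lowest SIVE animal and still lies above all 9 controls.

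The widest gaps between the 2 arrays of an animal were in controls. For ISG15 they differed by 0.035 to 0.178 in the SIVE animals, with a median of 0.0959. In controls they differed by 0.001 to 0.939, with a median of 0.0927. The wide pairs were Control 9, at 6.54 and 7.48, and Control 7, at 5.69 and 6.47. The SD between duplicate arrays of ISG15 was 0.0801 in SIVE and 0.312 in controls, where the SD between animals was 0.369. For HERC6 the SD between duplicates was 0.0752 in SIVE and 0.199 in controls, against an SD between control animals of 0.207. The SD between duplicates is that of a single array, whereas the SD between animals is of means of 2 arrays, which carry less error. The order of the controls is thus uncertain where the 2 arrays lie wide apart. Duplicate error is small beside the spread of SIVE animals, whose SD was 0.487 for ISG15 and 0.472 for HERC6. The gaps also had a direction, which the SD between duplicates includes. HERC6 was lower on the second array except in SIVE 9 and Control 5. ISG15 was lower on it in SIVE except SIVE 9, and higher in controls except Control 2 and Control 5. The rise on first and second arrays was 5.53 and 5.22 for ISG15, and 3.63 and 3.74 for HERC6.

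Within SIVE the animals did not spread evenly. For ISG15 the order from the top was SIVE 6 (12.60), SIVE 7 (12.59), SIVE 2 (12.56), SIVE 4 (12.39), SIVE 3 (12.31), SIVE 5 (12.29), SIVE 9 (12.01), SIVE 1 (11.74) and SIVE 8 (11.12). The first 3 of these lay closer together than the SD between duplicates. For HERC6 the order was SIVE 3 (10.15), SIVE 9 (10.11), SIVE 2 (10.06), SIVE 4 (10.04), SIVE 6 (9.96), SIVE 5 (9.85), SIVE 7 (9.82), SIVE 1 (9.41) and SIVE 8 (8.68). The 2 lowest animals were the same for both genes, and above them the orders differed: SIVE 9 was 7th for ISG15 and 2nd for HERC6, and SIVE 7 was 2nd and 7th.

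The next question was whether the rise differed by anti-CD8 label. Without the antibody, ISG15 stood at 12.29, 12.60, 12.59, 11.12 and 12.01 in SIVE 5 to SIVE 9. The 7 controls without it ran from 6.08 through a median of 6.75 to 7.13. ISG15 was higher in SIVE by 5.43 ± 0.23 (SE, limma adjusted p = 8.78e-11). With the antibody, ISG15 stood at 11.74, 12.56, 12.31 and 12.39 in SIVE 1 to SIVE 4, and at 7.41 in Control 8 and 7.01 in Control 9. That difference was 5.04 ± 0.34 (SE, limma adjusted p = 1.94e-07).

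HERC6 without the antibody stood at 9.85, 9.96, 9.82, 8.68 and 10.11 in SIVE 5 to SIVE 9, against 5.75 to 6.41 in the 7 controls, whose median was 6.12. It was higher in SIVE by 3.58 ± 0.20 (SE, limma adjusted p = 4.52e-09). With the antibody it stood at 9.41, 10.06, 10.15 and 10.04 in SIVE 1 to SIVE 4, and at 6.27 and 5.92 in Control 8 and Control 9, a difference of 3.82 ± 0.30 (SE, limma adjusted p = 1.21e-06). Both genes passed under both labels, where 2.34% of probe sets were called higher and 0.791% lower (3.13% in all) without the antibody, and 0.844% higher (1.05% in all) with it. Only 2 controls carry the label, so the comparison with the antibody has the wider interval. These controls were 3 and 4 years old and the treated SIVE animals 6, so age and SIVE cannot be told apart there. All 3 animals of high 3′ signal are in that comparison as well. Both limits also enter the test of the difference between effects.

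The difference between these effects was tested directly. The SIVE rise of ISG15 with the antibody, minus that without it, was -0.39 on the log2 scale, with a 95% interval from -1.25 to 0.47 (limma p = 0.348, adjusted p = 1.00). For HERC6 the same value was 0.25, with an interval from -0.52 to 1.01 (p = 0.511, adjusted p = 1.00). Neither passed, and both intervals are wide. By limma 0 of 52707 probe sets passed this test, against 1481 at an unadjusted p under 0.05, so the share called was 0%.

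Within SIVE animals, those given the antibody differed from the others by 0.13 for ISG15 (95% interval -0.43 to 0.68, limma adjusted p = 0.842). For HERC6 they differed by 0.23 (interval -0.26 to 0.72, adjusted p = 0.647). Without SIVE 8 both signs turned, to -0.12 for ISG15 and -0.02 for HERC6. All 4 treated SIVE animals were 6 years old and the other 5 were younger, so age and antibody cannot be told apart here. In this comparison 0.0019% of probe sets were called. Within controls, ISG15 was 7.21 ± 0.28 (SD, n = 2) with the antibody and 6.69 ± 0.31 (SD, n = 7) without, a difference of 0.52 with an interval from -0.14 to 1.18 (adjusted p = 0.382). Without Control 8, whose 3′ signal is high, that difference was 0.32, and without Control 9 it was 0.72. HERC6 in controls differed by -0.01 (interval -0.60 to 0.58, adjusted p = 0.982). In that comparison limma called 0 of 52707 probe sets, a share of 0%, against 8266 at an unadjusted p under 0.05. A miss in these tests does not show that the antibody left either gene unchanged.

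**Figure D2:**
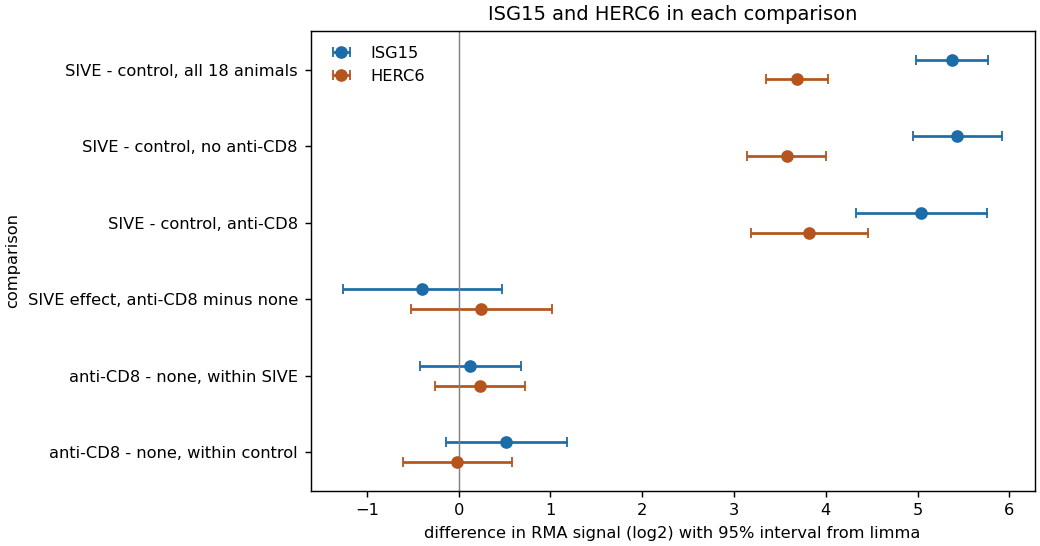
Differences in RMA signal (log2) for ISG15 and HERC6 in the 6 comparisons, with 95% intervals from limma. The 3 differences between SIVE and control lie between 3.58 and 5.43, and all 6 intervals of the anti-CD8 contrasts and of the difference between effects include 0.

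The enzymes of the ISG15 relay were only partly readable. Of 6 genes in this list 4 were measured, 2 rose and none fell, with a median difference of 0.96. Over all 14132 genes the median was -0.02, with 5.72% called higher and 1.51% called lower. HERC5 has no probe set with its symbol in the table used, and the probe set that carries the USP18 symbol also carries that of another gene, so neither was analysed here.

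UBE2L6, the conjugating enzyme that hands ISG15 to the ligase, ran from 10.13 through a median of 10.79 to 11.40 in SIVE. In controls it ran from 7.98 through 8.42 to 9.04, with Control 8 the highest. The groups did not overlap, and UBE2L6 rose by 2.38 ± 0.17 (SE), or 5.21-fold (limma adjusted p = 6.59e-09). SIVE 8 was the lowest SIVE animal here too, and SIVE 2 the highest.

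TRIM25, a ubiquitin ligase of the RIG-I pathway that has also been described as a ligase for ISG15, ran from 9.18 through 9.58 to 9.89 in SIVE and from 7.31 through 7.67 to 7.80 in controls. It rose by 1.92 ± 0.09 (SE), or 3.80-fold, with no overlap (limma adjusted p = 1.14e-11). Of its other 3 probe sets 2 rose, by 1.64 and 0.75, and the dimmest differed by 0.12 and did not pass. SIVE 8 was again the lowest. ARIH1, another ligase reported to attach ISG15 to some targets, was at 8.35 in both groups, with a difference of 0.00 ± 0.08 (adjusted p = 0.993).

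UBA7, the activating enzyme, gave a divided picture over its 5 probe sets. Its brightest probe set was at 12.56 in controls and 12.39 in SIVE, a difference of -0.17 ± 0.09 (SE) that did not pass (limma adjusted p = 0.272), and 3 others differed by -0.14, -0.14 and 0.02. The dimmest probe set rose by 1.42 ± 0.20, from 6.93 to 8.35, with overlap between the groups (adjusted p = 1.25e-04). With the 5 averaged, UBA7 was higher by 0.20 (adjusted p = 0.0453). Which of these probe sets reads the UBA7 transcript was not tested.

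Other HERC genes were not called. HERC1, HERC2, HERC3 and HERC4, which share the repeat domain of HERC6, were all measured by 2 to 4 probe sets each. At the brightest probe set 0 of these 4 genes passed, where 5.72% of all genes were called higher and 1.51% lower. With 4 genes, 0 calls cannot be told apart from that share. The differences of these HERC genes were -0.06 ± 0.08, -0.20 ± 0.07, -0.06 ± 0.12 and 0.12 ± 0.11 (SE), with a median of -0.06. HERC2, a large ligase of the DNA damage response, passed as lower with its 4 probe sets averaged, by -0.19 (limma adjusted p = 0.0166), and after a further quantile normalization, by -0.24 (adjusted p = 0.0467). The other 5 probe sets of HERC1, HERC3 and HERC4 had differences between -0.15 and 0.16, and none passed.

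Among ubiquitin and its relatives, 6 of 14 genes were measured, where 5.72% of all genes were called higher and 1.51% lower. Of these 6 genes 1 rose. It was UBD, also called FAT10, a ubiquitin-like protein induced by interferon gamma and tumour necrosis factor that marks proteins for the proteasome. UBD was higher by 0.94 ± 0.23 (SE), or 1.91-fold (limma adjusted p = 0.0211), but the groups overlapped. It ran from 5.22 through 5.61 to 7.38 in SIVE and from 4.68 through 4.94 to 5.29 in controls, and the animal orders were unlike those of ISG15: SIVE 6, the highest for ISG15, was the lowest for UBD, and SIVE 9 was the highest. The modifiers NEDD8, SUMO2, URM1, FAU and UBL5 differed by -0.04 to 0.07, with no call. None of 5 measured activating enzymes of other modifiers passed (UBA1, UBA2, UBA6, SAE1 and ATG7, differences from -0.13 to 0.22, limma adjusted p of 0.299 or more). Counts over so few genes cannot be told apart from the share over all genes.

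**Figure D3:**
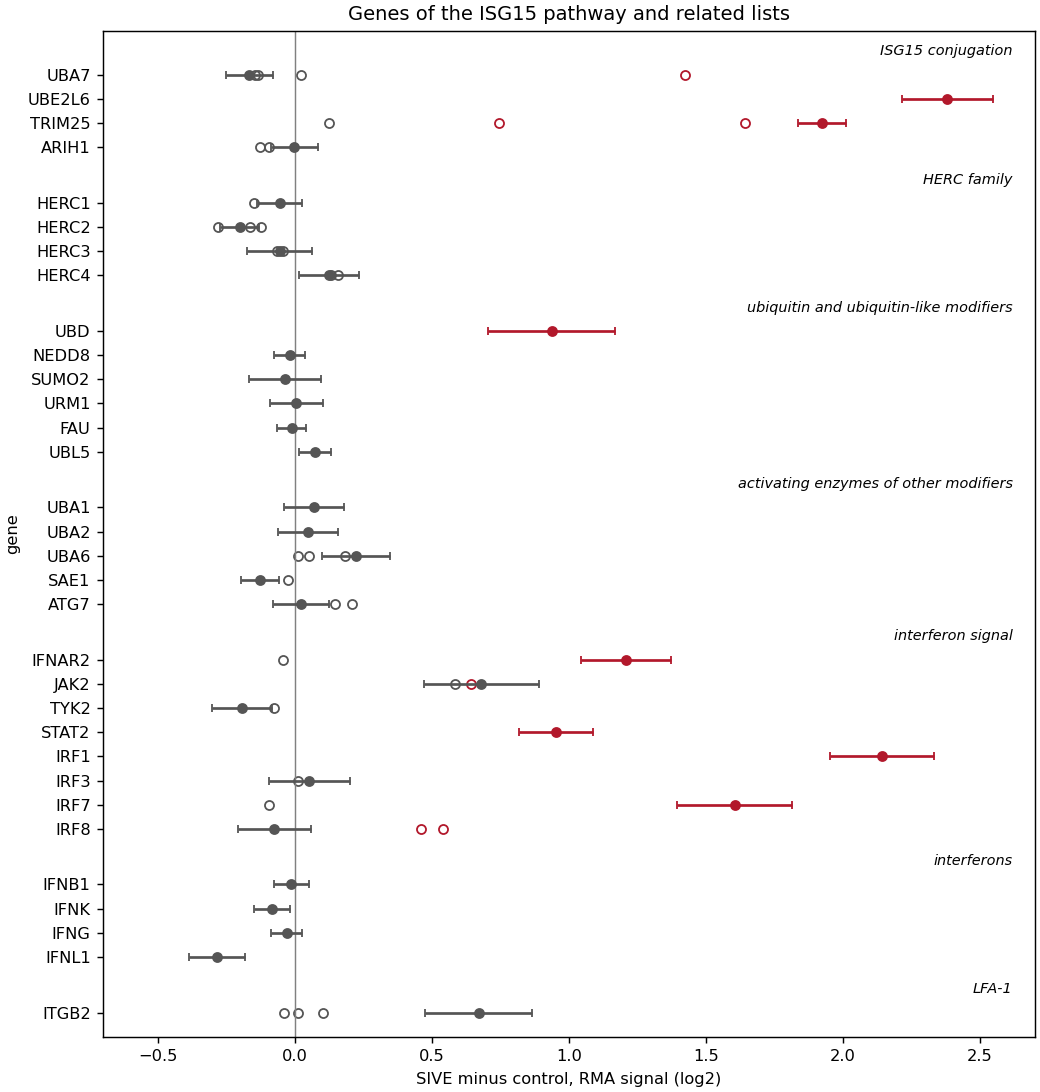
Difference in RMA signal (log2) between SIVE and control for each measured gene of the listed groups. Filled points with SE bars are the brightest probe set, open points the other probe sets, and red marks a limma adjusted p under 0.05. UBE2L6 at 2.38 and TRIM25 at 1.92 lead the conjugation list, the HERC genes lie near 0, and the UBA7 probe sets divide.

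In the signalling chain upstream of both genes, 8 of 14 listed genes were measured, 4 rose, none fell and the median difference was 0.82, against 5.72% of all genes called higher and 1.51% lower. STAT2, a transcription factor of the type I interferon response, rose by 0.95 ± 0.14 (SE), from 6.04 to 6.99 (limma adjusted p = 1.27e-04), and SIVE 9 was its lowest SIVE animal. IRF1, a transcription factor induced by interferon gamma, rose by 2.14 ± 0.19 without overlap, with SIVE 7 the highest at 9.24. IRF7, which amplifies the type I response, rose by 1.61 ± 0.21 without overlap at the brighter of its probe sets; the dimmer one differed by -0.10 and did not pass. IFNAR2, a chain of the type I interferon receptor, rose by 1.21 ± 0.16, with overlap, at the brighter probe set, and the dimmer one differed by -0.04.

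The members that did not pass at their brightest probe set were JAK2 (0.68 ± 0.21, limma adjusted p = 0.069), TYK2 (-0.19), IRF3 (0.05) and IRF8 (-0.08). The dimmer pair of IRF8 probe sets both passed as higher, by 0.54 and 0.46, and with all 3 averaged IRF8 was higher by 0.31 (limma adjusted p = 0.00647). JAK2 has 1 dimmer probe set that passed, by 0.64, and with its 3 averaged it was higher by 0.63 (adjusted p = 8.94e-05). The brightest JAK2 probe set passed with all 36 arrays, with the anti-CD8 covariate and without the animals of high 3′ signal. It also passed without Control 8 and without SIVE 9 (limma adjusted p of 0.00171 to 0.0484 over these). The interferons were dim: of 6 listed genes IFNB1, IFNG, IFNK and IFNL1 were measured, with group means between 3.07 and 4.93, below the median probe set level. None passed, and their differences ran from -0.28 for IFNL1 to -0.01 for IFNB1. A signal this dim bounds the transcript poorly. Of the integrin LFA-1 the beta chain ITGB2 was measured and differed by 0.67 ± 0.19 (adjusted p = 0.0537). It passed without Control 8 at 0.81 (limma adjusted p = 0.00319), without SIVE 8 at 0.76 (0.0217) and without SIVE 9 at 0.74 (0.0377). It also passed on first arrays alone, with all 36 arrays, with arrays centred on their median and with the filter on level. The same held without the animals of high 3′ signal and with the anti-CD8 covariate (limma adjusted p of 0.00257 to 0.049 over these). Its other 3 probe sets differed by -0.04, 0.10 and 0.01, and with all 4 averaged it differed by 0.19 and did not pass (limma adjusted p = 0.276).

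Neighbouring genes in the RefSeq gene table (assembly T2T-MMU8v2.0, used for gene order only) were read beside both members. HERC6 lies between PPM1K and HERC5, and ISG15 between AGRN and HES4, counting named protein-coding genes. Of the 3 nearest on each side of ISG15, AGRN, HES4 and PLEKHN1 were measured, and none passed (differences 0.14, 0.04 and -0.21). PLEKHN1 was called lower without the 3 animals of high 3′ signal (-0.25, limma adjusted p = 0.04) and with the anti-CD8 label as a covariate (-0.26, adjusted p = 0.0214). Around HERC6, PKD2, ABCG2, PPM1K and PYURF were measured. PPM1K, a mitochondrial phosphatase of branched-chain amino acid breakdown, was higher by 0.34 ± 0.08 (SE), or 1.27-fold (limma adjusted p = 0.0179). It did not pass on the first arrays alone (0.24, adjusted p = 0.0756), after a further quantile normalization (0.30, adjusted p = 0.0966) or with its 3 probe sets averaged (0.29, adjusted p = 0.0558), and SIVE 8 was among its 3 highest SIVE animals.

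Markers of some other cell types, but not of all, were called in SIVE against control. Over all genes 5.72% were called higher and 1.51% lower. Of 6 measured macrophage and myeloid markers 4 rose without overlap at the brightest probe set (LYZ, CD14, PTPRC and VSIG4), against 1.2% of all probe sets without overlap. PTPRC also rose, with overlap, by 1.30 and 1.44 at dimmer probe sets, and 1 more (0.04) did not pass. The sum of the 6 log2 signals was 43.0 to 49.3 in SIVE and 35.3 to 39.0 in controls. SIVE 1 and SIVE 8, the animals lowest for ISG15 and HERC6, had the lowest sums, 43.0 and 43.1. Of 5 microglia markers AIF1 rose at the brightest probe set, and its other one (0.11) did not pass. The microglia sums overlapped, at 31.2 to 38.2 and 33.3 to 36.3, with SIVE 8 the lowest and SIVE 1 the highest. Of 4 endothelial markers PECAM1, CDH5 and VWF rose at the brightest probe set, with sums of 30.6 to 35.6 and 29.3 to 33.7, and SIVE 8 the lowest. The other probe set of CDH5 (0.11) and of VWF (-0.02) did not pass, and with its probe sets averaged VWF differed by 0.48 (limma adjusted p = 0.0534). Among 4 measured B and plasma cell markers JCHAIN rose by 2.81 at the brightest probe set, with sums of 19.98 to 25.6 and 19.4 to 20.4. The other probe set of JCHAIN (0.07) did not pass, and MS4A1 passed as higher at 1 dimmer probe set (0.25, limma adjusted p = 0.0254). None of 3 measured T cell markers (CD8A, CD8B and CD4) passed, with sums of 17.0 to 18.2 and 16.8 to 18.5. Neuron (2 of 5 measured), choroid plexus (2 of 3) and striatum and thalamus markers (3 of 5) had no call at their brightest probe sets. DRD2, of the last list, was lower at 1 of its other 2 probe sets, by -0.27 (limma adjusted p = 0.0311), and with all 3 averaged, by -0.21 (adjusted p = 0.036). Of 3 astrocyte markers GFAP rose by 0.36 at the brightest probe set, with sums of 33.1 to 33.8 and 32.1 to 34.0. The other GFAP probe set differed by -0.01 and did not pass (limma adjusted p = 0.957). Of 2 oligodendrocyte markers MBP fell by 0.32, with sums of 24.6 to 25.3 and 24.8 to 25.2, and its other probe set was lower too (-0.52). SIVE 8 also had the lowest SIVE sums of T cell and choroid plexus markers, and stood 8th of 9 for astrocyte and oligodendrocyte markers. From the top it stood 2nd for neuron, 4th for hippocampus and 5th for striatum and thalamus markers. For B and plasma cell markers SIVE 8 stood 6th and SIVE 1 was the lowest. The part of these cell types in the rise of ISG15 and HERC6 was not tested.

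Across the 9 SIVE animals, 5 relations were examined with exact permutation tests, two-sided, and adjusted together. ISG15 and HERC6 had a Pearson r of 0.857 (exact permutation p = 0.0308, adjusted 0.077) and a Spearman rho of 0.317 (exact permutation p = 0.410, adjusted 0.683). Without SIVE 1 and SIVE 8, the animals farthest from the ISG15 median, r was -0.458 (n = 7, exact permutation p = 0.274), so the relation rests on those animals. In the 9 controls r was -0.156 and rho -0.1 (exact permutation p = 0.705 and 0.81). Groups split by anti-CD8 label hold 5 and 4 SIVE animals, too few for a correlation of their own.

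No relation with the virus signal passed. A set of 9 probe sets carries a nucleotide accession taken here, from general knowledge, as that of a simian immunodeficiency virus genome, and 5 of the 9 were called higher in SIVE. The brightest in SIVE, for coding sequence 9, was used and ran from 7.53 in SIVE 6 to 11.22 in SIVE 9. In controls it was 3.28 to 4.25. SIVE 6 thus had the lowest virus signal and the highest ISG15, and SIVE 8, lowest for both genes, had a virus signal of 10.51. Over 9 SIVE animals r was -0.148 for ISG15 and -0.0715 for HERC6, and rho -0.133 and 0.15 (exact permutation p of 0.708 or more in all 4).

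Within SIVE, HERC6 followed the 3′ minus 5′ signal by rank. The relation was not examined in controls, where Control 8, of the highest 3′ signal, was 3rd for HERC6. Over the 9 SIVE animals rho was 0.917 (exact permutation p = 0.00131, adjusted 0.00656) and r 0.499 (exact permutation p = 0.0206, adjusted 0.077). Without SIVE 1 and SIVE 8, r was 0.652 (n = 7, exact permutation p = 0.0738). For ISG15 rho was 0.45 (exact permutation p = 0.230) and r 0.375 (p = 0.272, also exact). The 3′ minus 5′ difference was 0.442 ± 0.374 (SD, n = 9) in SIVE and 0.415 ± 0.394 (SD, n = 9) in controls. Without SIVE 2, SIVE 3 and Control 8 the rise was 5.38 for ISG15 (limma adjusted p = 1.03e-11) and 3.61 for HERC6 (adjusted p = 3.23e-10).

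**Figure D4:**
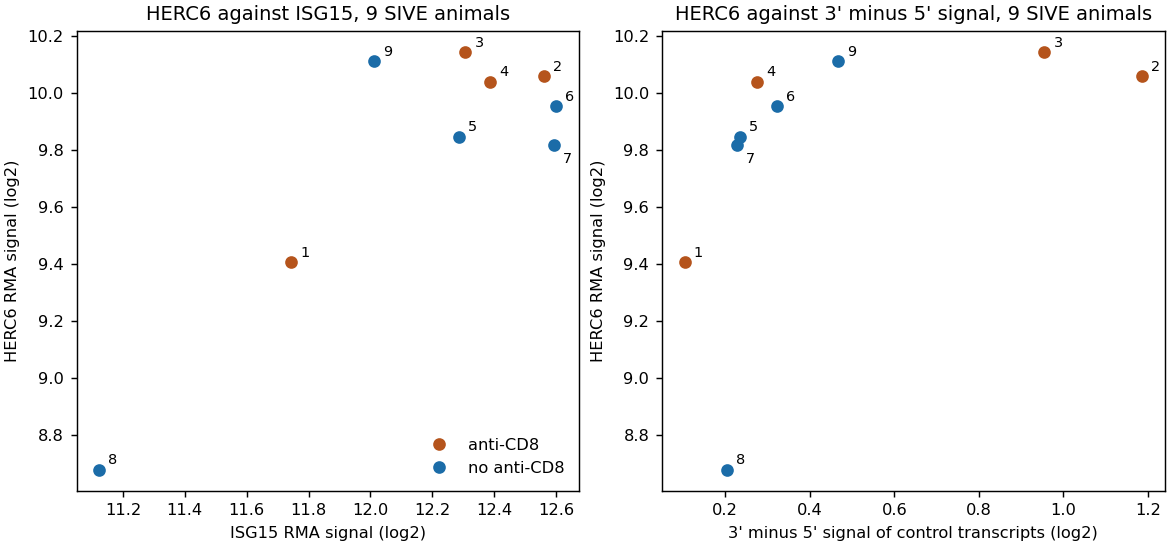
HERC6 signal (log2) against ISG15 signal (left) and against the 3′ minus 5′ signal of control transcripts (right), both log2, for the 9 SIVE animals with their replicate numbers, coloured by anti-CD8 label. On the left SIVE 8 and SIVE 1 lie low on both axes and the other 7 show no common rise; on the right the ranks follow each other, with a rho of 0.917.

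Genes whose signal followed each member most closely were sought among 10054 others, each at its brightest probe set and at or above the median level, by Pearson r over the 9 SIVE animals, as a description without a test. For ISG15 the closest 5 were MPO (r = 0.982), MX1 (0.979), AMBP (0.961), SP110 (0.960) and FAM111A (0.954). MX1, an antiviral GTPase, and SP110, a nuclear body protein induced by interferon, rose in SIVE by 4.48 and 2.03, and FAM111A, a protease that restricts some viruses, by 1.87. AMBP, the precursor of a plasma protein, rose by 3.79. MPO, a peroxidase of neutrophils, was lower in SIVE, by a log2 value of -0.24, although it followed ISG15 within the group. Its SIVE mean was 5.815 ± 0.127 (SD, n = 9), a narrow spread close to the median probe set level of 5.65.

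For HERC6 the closest 5 were ACSM5 (r = 0.973), KCNMB1 (0.970), CDV3 (0.966), LOC707168 (0.961) and COX6B1 (0.958). Of these CDV3 was called higher in SIVE, by 0.23, and the other 4 did not pass, with differences from -0.04 to 0.53. HERC6 itself was 56th in the ISG15 order and ISG15 50th in the HERC6 order. These 10 genes share the libraries and their RNA quality with the members, and their r with the 3′ minus 5′ signal was 0.365 to 0.591. Their r with the members was not computed without SIVE 1 and SIVE 8, on which the r of ISG15 with HERC6 rests. Whether these genes follow the members in the other animals was thus not tested.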

How the data were processed

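RNA of 36 arrays from 18 animals was analysed. The authors deposited log2 signals made with RMA, per the submitters' processing notes, which corrects background, normalizes arrays and summarises each probe set. The log2 scale was read from the values (2.30 to 14.49), and no RMA version is stated in the labels. Of 52865 probe sets 99 Affymetrix controls and 59 reporters were left out. A gene is represented by its brightest probe set among those with a single symbol. The arrays of an animal were averaged. Differences were tested by two-sided moderated tests in limma 3.58.1 (R 4.3.3) over 52707 probe sets with Benjamini-Hochberg adjustment at 0.05, with 1 mean per group over 18 animals, or 1 mean per group and anti-CD8 label with a shared spread. The limma p-values set a difference of means against the spread between these animals, moderated over all probe sets. The fitting script was tested on simulated data first. Correlations used exact permutation tests in Python 3.11.15 with scipy 1.17.1.

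Every probe set of ISG15 and HERC6 was named, with the measured genes of the fixed lists, the 3 named neighbours on each side in the RefSeq table, and the 5 genes of highest r. The members and lists were chosen with earlier results of these data known. Alternatives were single arrays, the animal as a random block, the replicate number as a block, other normalizations, filters, variance priors, covariates, probe set means, and leaving out animals. No genome, promoter or protein sequence was used here.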

Additional observations from a re-analysis of the deposited data

Results flagged for a closer look

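Single animals that stood far from the rest of their group are listed with their log2 signal. A gap test at the 95% level was applied to 88 groups of values, from 41 genes, and 15 gave such an animal, where chance gives about 1 in 20. The groups share animals and some lie within others, so they are not independent and the excess over that rate was not tested. For HERC6, SIVE 8 at 8.68 was far below the other SIVE animals, the next at 9.41. It was also far below the other SIVE animals without anti-CD8, at 8.68 against 9.82. SIVE 1 at 9.41 was far below the other treated SIVE animals, the next at 10.04.

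Control 8, 1 of the 3 animals of high 3′ signal, stood apart from the other controls in 8 genes. It was highest for UBE2L6 (9.04), URM1 (8.52), FAU (12.03), UBA1 (11.37), IRF3 (8.03) and ITGB2 (8.14), and lowest for UBL5 (10.80) and PYURF (7.41). The remaining values are ARIH1 in SIVE 9 (8.69, highest of SIVE), IRF1 in SIVE 7 (9.24, highest of SIVE), IFNG in Control 5 (3.71, highest of controls) and HES4 in Control 7 (5.78, lowest of controls). The part of RNA quality in these values was not tested.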

How the results depend on the processing

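The rise of ISG15 and HERC6 in SIVE passed under all 31 alternatives run, at 5.22 to 5.53 and 3.61 to 3.82. It also passed in animals without anti-CD8 under all 29, at 5.31 to 5.82 and 3.47 to 3.83. With anti-CD8 it passed under 28, at 4.71 to 5.37 and 3.65 to 4.00. Only a replicate block, fitted on the labels' numbers, ended these calls, at 4.09 (limma adjusted p = 0.0696) for ISG15 and 3.28 (adjusted p = 0.184) for HERC6. These numbers do not pair the animals: over 9 numbers the correlation of deviations was -0.488 to 0.0888. The calls of UBD, GFAP, PECAM1, CDH5 and VWF were lost with that block too (limma adjusted p of 0.0527 to 0.097). No anti-CD8 contrast of either gene passed under any alternative, although some uncalled values changed sign, among them both genes' anti-CD8 difference within SIVE. Not every alternative counted here can move a difference. Leaving out an animal that a contrast does not use changes only the shared spread. Variance priors, the filter on level and probe set means keep the difference of both genes as well.

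The correlation r of HERC6 with the 3′ minus 5′ signal was 0.553 on first arrays alone and passed (exact permutation, adjusted p = 0.0311). Leaving out an animal gave 0.429 to 0.629, and the highest, without SIVE 8, passed too (adjusted p = 0.0461, exact permutation). The rank correlation on second arrays alone was 0.80 and did not pass (adjusted p = 0.0691, exact permutation).

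Counts of called probe sets moved by over 1.5 times. For SIVE against control 2595 became 1368 with the replicate block and 5294 with the anti-CD8 covariate. Without anti-CD8, 1652 became 531 with the block, 2512 without the 3 animals of high 3′ signal and 3197 with 36 arrays. With anti-CD8, 555 became 12 with the block, 205 without those 3 animals, 355 without SIVE 4, 979 on second arrays, 1043 with 36 arrays and 1661 without Control 5. For anti-CD8 within SIVE 1 became 0 to 4, and 1930 with 36 arrays. Within controls 0 became 1 to 9 under 6 alternatives, 284 on second arrays, 769 without Control 5 and 5963 without Control 9. For the difference between effects 0 became 2 with the block. The cause was not tested. No second probe set carries either symbol alone in the table used, and signals near background bound the interferons poorly.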
